A study of Mus musculus with 7 samples.

Results

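Expression of 36 genes of macrophages and other blood cells was followed across mouse fibroblasts, embryonic stem cells and induced pluripotent stem cells (iPSC) with and without Nanog, a transcription factor of pluripotent cells. The genes were chosen by name: receptors, lysosomal proteins, complement subunits, signalling adaptors and cytoskeletal proteins of macrophages, with 2 platelet chemokines. Earlier results of these data were known when they were chosen. Counts of members set against all genes therefore describe the list and are no independent support for it. Each was read through the probe sets that the array's annotation assigns to 1 gene symbol, taking the probe set with the highest mean. All 36 were found among 22180 genes measured this way, and each has 1 such probe set.

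Macrophages are phagocytes that live in nearly every tissue, and embryonic fibroblast cultures, being made from whole tissue, can hold some of them. Their growth and survival depend on the receptor Csf1r, whose ligands Csf1 and Il34 are made by stromal cells, and the transcription factor Spi1, also called PU.1, directs many of their genes. Antibody and lectin receptors signal through the adaptors Tyrobp and Fcer1g, and engulfment and migration need actin, which blood cells remodel with relatives of ubiquitous proteins. Nckap1l, also called Hem1, is one of these: it is the blood cell subunit of the WAVE complex, which switches on actin branching, while most other cells use its paralog Nckap1.

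The 7 arrays were Affymetrix whole-transcript arrays with RNA from cells of strain 129. Wild-type (WT) cells gave 1 array of embryonic stem cells (ESC), 2 of iPSC and 1 of mouse embryonic fibroblasts (MEF). Nanog knockout (KO) cells gave 2 arrays of iPSC and 1 of MEF. The labels describe the iPSC replicates as biological but do not say whether they are separate lines, and p-values measure only the spread between these arrays. They name ESC medium, 2i/LIF medium (with inhibitors and a cytokine that hold stem cells in the pluripotent state) and MEF medium without assigning them to samples, and embryo age, passage, feeder cells and reprogramming factors were not given in the sources used here. Each array holds the RNA of a whole culture, so fewer cells of a type and less RNA per cell cannot be told apart.

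Values are log2 of the deposited intensity, with array medians between 7.05 and 7.13. A gene was called above background on an array when it exceeded the 95th percentile of 1394 genes of smell and pheromone receptors (olfactory and vomeronasal), which lay between 6.30 and 6.50. Nanog itself read 12.84 and 12.76 in WT iPSC, 12.73 in WT ESC, 7.50 and 7.44 in KO iPSC, 6.53 in WT MEF and 6.42 in KO MEF. It was low on every KO array, and which part of the gene was deleted was not given in the sources used here. The summed intensity of 15 pluripotency markers was 31880 to 40994 on the 5 pluripotent arrays and 1128 to 1136 on the MEF arrays. Fibroblast markers, 14 of 15 of which were measured, summed to 61502 in WT MEF and 81361 in KO MEF, and to 26189 and 12127 in WT iPSC, 18031 in WT ESC, and 12836 and 12802 in KO iPSC. Among the pluripotent arrays, WT iPSC replicate 1 thus carried the most fibroblast marker signal.

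Across the 36 genes, 29 were above background on at least 1 array, against 68.9% of all genes, and 17 on all 7 arrays, against 55.4%. The number above background was 28 in WT MEF (61.0% of all genes), 23 in KO MEF (62.5%), 21 and 22 in WT iPSC (62.5% and 62.7%), 21 in WT ESC (63.7%), and 19 in each KO iPSC array (61.2% and 62.1%). WT MEF was the highest of the 7 arrays for 25 of the 36 genes, compared with 16.7% of all genes, whereas KO MEF was the highest for 2, compared with 19.1%. The heatmap of the 36 genes shows this in the WT MEF column. Ptprc (CD45, the phosphatase on all nucleated blood cells), Cd52, Cd84, Fcgr1, Clec4d, Clec7a and Ccr1 were above background on no array. The label of a macrophage gene set therefore rests on a part of the list: the pan-leukocyte marker Ptprc stayed between 5.10 and 5.99, and Adgre1, a surface antigen of mature macrophages, was above background in WT MEF alone. With the 99th percentile of the receptor genes in place of the 95th, 19 of the 36 were above background on at least 1 array, so many of the levels near 7 are within the range of the brightest receptor genes.

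**Figure D1:**
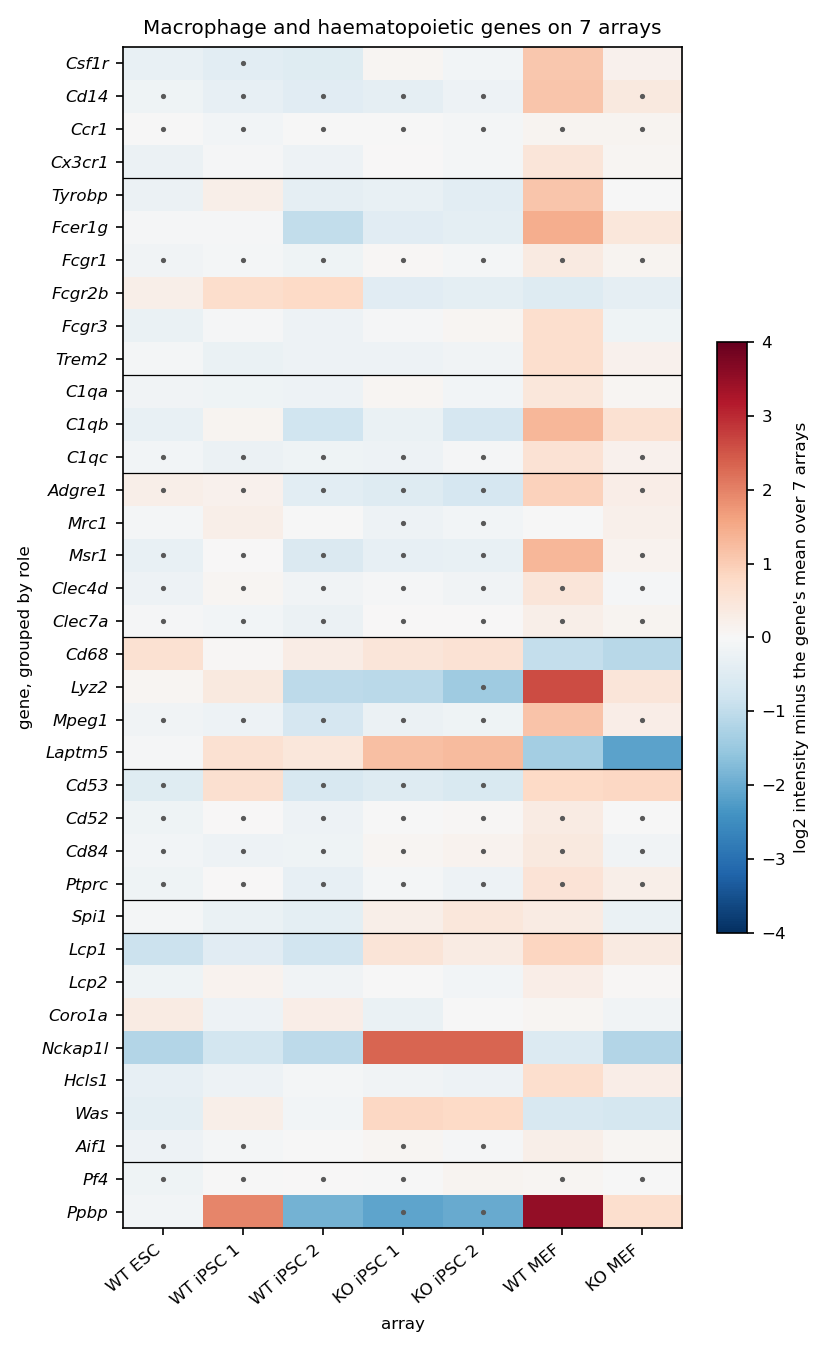
Heatmap of the 36 genes (rows, grouped by role) on the 7 arrays (columns). Colour is the log2 intensity minus the gene's mean over the 7 arrays, dots mark values at or below the array's background yardstick, and horizontal lines separate roles. WT MEF is the highest array for 25 genes, and Nckap1l stands out in both KO iPSC arrays.

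Receptors for growth factors, chemokines and bacterial lipopolysaccharide were highest in WT MEF, apart from Ccr1, which was below background throughout. Csf1r read 7.95 in WT MEF, 7.03 in KO MEF, 6.43 and 6.38 in WT iPSC, 6.55 in WT ESC, and 6.93 and 6.75 in KO iPSC. Cd14, a co-receptor for lipopolysaccharide, was above background only in WT MEF, at 7.02, with 6.30 in KO MEF, 5.58 and 5.46 in WT iPSC, 5.71 in WT ESC, and 5.53 and 5.68 in KO iPSC. Cx3cr1, the fractalkine receptor of microglia and tissue macrophages, read 8.24 in WT MEF, 7.84 in KO MEF, 7.70 and 7.53 in WT iPSC, 7.50 in WT ESC, and 7.75 and 7.67 in KO iPSC. KO MEF came second for all 3, with the margin over KO iPSC narrow for Csf1r and Cx3cr1.

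The adaptors of antibody and lectin receptors, Tyrobp and Fcer1g, were above background on all 7 arrays. Tyrobp, the partner of Trem2, stood at 8.54 in WT MEF, 7.42 in KO MEF, 7.66 and 7.07 in WT iPSC, 7.19 in WT ESC, and 7.14 and 7.02 in KO iPSC. Fcer1g, the common chain of activating Fc receptors, stood at 9.11 in WT MEF, 8.12 in KO MEF, 7.60 and 6.67 in WT iPSC, 7.62 in WT ESC, and 7.20 and 7.26 in KO iPSC. Both were highest in WT MEF, and in WT iPSC both were higher in replicate 1. Trem2, a lipid receptor, read 7.94 in WT MEF, 7.44 in KO MEF, 7.005 and 7.08 in WT iPSC, 7.20 in WT ESC, and 7.08 and 7.14 in KO iPSC. Fcgr3, an activating receptor for immunoglobulin G, read 7.49 in WT MEF, 6.66 in KO MEF, 6.77 and 6.62 in WT iPSC, 6.56 in WT ESC, and 6.77 and 6.90 in KO iPSC. Its neighbour Fcgr2b, the inhibitory receptor of the family, had a different order: 8.04 and 7.96 in WT iPSC, 7.49 in WT ESC, 6.89 in KO MEF, 6.79 and 6.87 in KO iPSC, and 6.72 in WT MEF. The Fc receptors are similar in sequence, and how far their probe sets share signal was not tested.

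The 3 chains of complement C1q, which macrophages secrete, were all highest in WT MEF. C1qb read 9.13 there, 8.42 in KO MEF, 7.92 and 7.02 in WT iPSC, 7.50 in WT ESC, and 7.54 and 7.14 in KO iPSC. C1qa read 7.86 in WT MEF, 7.47 in KO MEF, 7.23 and 7.19 in WT iPSC, 7.25 in WT ESC, and 7.48 and 7.29 in KO iPSC. C1qc was above background only in WT MEF, at 6.68, with 6.28 in KO MEF, 5.87 and 5.92 in WT iPSC, 5.999 in WT ESC, and 5.92 and 6.07 in KO iPSC. The C1q chains thus shared the order WT MEF above KO MEF, although C1qa overlapped between KO MEF and the pluripotent arrays.

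Scavenger and surface receptors of mature macrophages followed. Msr1, which takes up modified lipoproteins, read 7.44 in WT MEF, 6.25 in KO MEF, 6.12 and 5.52 in WT iPSC, 5.82 in WT ESC, and 5.79 and 5.80 in KO iPSC. Adgre1 read 6.80 in WT MEF, 6.15 in KO MEF, 6.05 and 5.47 in WT iPSC, 6.11 in WT ESC, and 5.35 and 5.22 in KO iPSC. Neither was above background on another array. Mrc1, the mannose receptor, did not share that order: it read 6.46 in WT MEF, 6.67 in KO MEF, 6.72 and 6.46 in WT iPSC, 6.40 in WT ESC, and 6.27 and 6.37 in KO iPSC. Cd53, a leukocyte tetraspanin, read 7.53 in WT MEF, 7.57 in KO MEF and 7.39 in WT iPSC replicate 1, but 6.10 in WT iPSC replicate 2, 6.26 in WT ESC, and 6.22 and 6.13 in KO iPSC. It was therefore above background on 3 arrays only: both MEF arrays and 1 WT iPSC array.

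Genes of lysosomes and of killing showed opposite orders. Lyz2, the lysozyme of macrophages and neutrophils, read 10.42 in WT MEF, 8.31 in KO MEF, 8.22 and 6.78 in WT iPSC, 7.92 in WT ESC, and 6.74 and 6.41 in KO iPSC. Mpeg1, a pore-forming protein, read 7.08 in WT MEF, 6.19 in KO MEF, 5.72 and 5.27 in WT iPSC, 5.78 in WT ESC, and 5.69 and 5.76 in KO iPSC. Both were highest in WT MEF. Cd68, a lysosomal membrane protein, was instead higher in pluripotent cells: 10.35 and 10.60 in WT iPSC, 10.91 in WT ESC, 10.79 and 10.86 in KO iPSC, 9.34 in WT MEF and 9.18 in KO MEF. Laptm5, which sorts receptors for degradation in lymphoid and myeloid cells, was also higher there: 9.77 and 9.62 in WT iPSC, 9.12 in WT ESC, 10.36 and 10.43 in KO iPSC, 7.82 in WT MEF and 7.03 in KO MEF. For Cd68 and Laptm5 the lowest pluripotent array lay above both MEF arrays. Both genes are known as leukocyte markers, so their level in these cells goes against the set's name.

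The remaining members were the transcription factor, actin regulators, signal adaptors and platelet chemokines. Spi1 read 7.26 and 7.13 in WT iPSC, 7.43 in WT ESC, 7.76 and 7.97 in KO iPSC, 7.85 in WT MEF and 7.26 in KO MEF. Hcls1, an actin-binding signalling protein of blood cells, read 7.81 in WT MEF, 7.41 in KO MEF, 6.95 and 7.06 in WT iPSC, 6.82 in WT ESC, and 7.01 and 6.94 in KO iPSC. Coro1a, an actin-binding protein of leukocytes, read 7.11 and 7.57 in WT iPSC, 7.64 in WT ESC, 7.05 and 7.31 in KO iPSC, 7.41 in WT MEF and 7.17 in KO MEF. Hcls1 separated the MEF arrays from the rest, and Coro1a did not. Lcp2, the adaptor SLP-76 of T cells and platelets, read 7.18 in WT MEF, 6.96 in KO MEF, 7.05 and 6.77 in WT iPSC, 6.76 in WT ESC, and 6.90 and 6.81 in KO iPSC. Aif1, the microglial marker Iba1, read 6.67 in WT MEF, 6.51 in KO MEF, 6.35 and 6.41 in WT iPSC, 6.22 in WT ESC, and 6.50 and 6.38 in KO iPSC. Both had narrow ranges, and Aif1 stayed close to background. The platelet chemokine Pf4 read 6.42 in WT MEF, 6.32 in KO MEF, 6.34 and 6.37 in WT iPSC, 6.18 in WT ESC, and 6.33 and 6.44 in KO iPSC. It exceeded background only in KO iPSC replicate 2 where value and yardstick both round to 6.44, so no array stood apart. Ppbp, the second platelet chemokine, varied more than any other member: 11.93 in WT MEF, 9.09 in KO MEF, 10.39 and 6.55 in WT iPSC, 8.32 in WT ESC, and 6.33 and 6.40 in KO iPSC.

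WT MEF exceeded KO MEF for 32 of the 36 genes, compared with 53.6% of all genes, with a median difference of -0.45 (KO minus WT) against -0.02 over all genes. With 1 array of each, this difference has no replicate check and no test. Of the 36, 4 were at least 2-fold lower in KO MEF, compared with 1.77% of all genes, and 0 were at least 2-fold higher, compared with 2.80%. Ppbp was 7.15-fold lower, Lyz2 4.33-fold lower, Tyrobp 2.18-fold lower, and Msr1, below background in KO MEF, at least 2.13-fold lower. The next were Fcer1g at -0.99, Csf1r at -0.92, Mpeg1 at -0.89, Fcgr3 at -0.82 and Laptm5 at -0.79 on the log2 scale. Only Mrc1 at 0.21, Fcgr2b at 0.17, Cd53 at 0.04 and Ccr1 at 0.02 lay above 0. Fibroblast markers moved the other way, with 4 of 14 at least 2-fold higher in KO MEF and 0 lower, and the part of this in the macrophage genes was not tested.

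Both WT iPSC arrays carry the same label but differed in several of the genes that were high in MEF. In replicate 1, 3 of the 36 genes were at least 2-fold higher, compared with 1.26% of all genes, and 0 were at least 2-fold lower, compared with 0.316%. Ppbp was 14.4-fold higher there, Lyz2 2.72-fold higher and Cd53, below background in replicate 2, at least 2.04-fold higher. Fcer1g and C1qb followed at 0.94 and 0.89 on the log2 scale. The higher fibroblast marker sum lay in the same array, and its part in these differences was not tested. Replicate 1 was above replicate 2 for 26 of the 36 genes, and the share of all genes was not counted. The median difference, replicate 1 minus replicate 2, was 0.16 over the 36 genes and -0.005 over all genes.

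**Figure D2:**
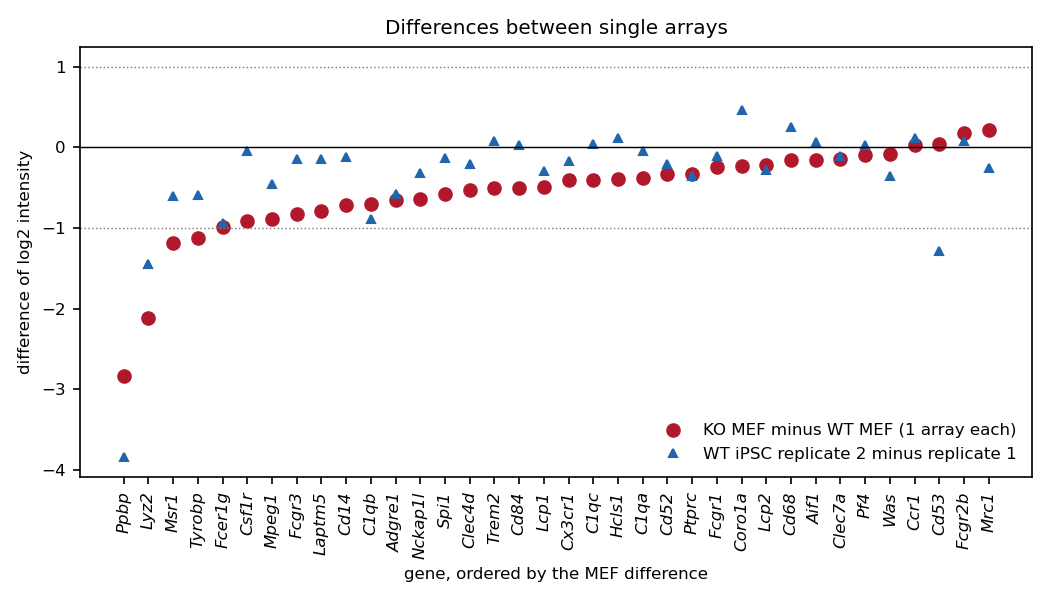
Log2 differences of the 36 genes between single arrays. Red circles are KO MEF minus WT MEF, blue triangles are WT iPSC replicate 2 minus replicate 1, and dotted lines mark 2-fold. Ppbp and Lyz2 lie beyond 2-fold on the negative side in both, and 32 of the red circles lie below 0.

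Between cell types, a limma fit with genotype as a covariate over the 4 iPSC and 2 MEF arrays found 3 of the 36 genes higher in iPSC, compared with 16.0% of all genes, and 10 lower, compared with 14.7%. The median iPSC minus MEF difference was -0.34 over the 36 genes and 0.03 over all genes. At an unadjusted p under 0.05, 20 of the 36 passed (55.6%), compared with 40.7% of all genes. The genes that fell in iPSC were led by Lyz2 (-2.33, SE 0.48, adjusted p = 0.0179), Fcer1g (-1.43, SE 0.35, adjusted p = 0.0322) and C1qb (-1.37, SE 0.30, adjusted p = 0.0216). Hcls1 fell by 0.62 and Trem2 by 0.61. Cd14 was at least 1.17-fold, Mpeg1 at least 1.14-fold, and Adgre1 and C1qc at least 1.03-fold lower in iPSC, where all 4 were below background. Ptprc passed the test with a difference of -0.54, but was below background in both cell types. The genes that rose in iPSC were Laptm5 (2.62, SE 0.33, adjusted p = 0.0042), Cd68 (1.39, SE 0.15, adjusted p = 0.0027) and Was (1.12, SE 0.22, adjusted p = 0.0158).

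The fall in iPSC depended on single arrays, and its median shrank most without WT MEF. Without that array, the median iPSC minus MEF difference was -0.12 over the 36 genes and 0.07 over all genes. Without KO MEF, it was -0.65 over the 36 genes and -0.0003 over all genes. Without KO iPSC replicate 1 the number lower was 5, and without KO iPSC replicate 2 it was 1, while the share of all genes fell to 9.95% and 9.72%. A fit of the 14787 genes with the highest means kept 24 of the members and called 5 of them lower, compared with 21.2% of all genes in that fit. Ppbp, with the largest difference of all members at -3.09 (SE 1.04), did not pass the test (adjusted p = 0.0804).

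Promoters of the members were searched for letters that blood cell factors are known to bind. The RefSeq promoter table for GRCm38.p6 matched 27 of the 36 genes, with 32 promoters, and the 250 bases before each start site were searched on both strands for GAGGAA, the core of the PU.1 site, and TGTGGT, the core of the RUNX site. GAGGAA occurred in 17 of the 32 promoters (53.1%) and in 23.3% of all 32851 promoters of the table. TGTGGT occurred in 7 of the 32 (21.9%) and in 14.05% of all. Clec7a and Fcgr3 each have 2 promoters that overlap, and counted by gene the share with GAGGAA was 55.6% against 25.9%. Of the 10 genes lower in iPSC, 8 have an entry: 4 hold GAGGAA and 2 TGTGGT, against 15 and 7 of the 27 matched members. At least 1 of the strings is held by 5 of the 8, and Fcer1g, Hcls1 and Mpeg1 hold neither. The share of all members or of all genes with either string was not counted. A match describes letters and is no evidence of binding. C1qb, Trem2 and Lyz2 are shown as genes of the 5 that hold a match. The sequences run 5′ to 3′ with the match in capitals, and a match on the opposite strand appears as TTCCTC or ACCACA. In C1qb the match begins 30 bases, in Trem2 40 bases and in Lyz2 66 bases before the start site.
C1qb promoter, chr4:136886201-136886450, minus strand: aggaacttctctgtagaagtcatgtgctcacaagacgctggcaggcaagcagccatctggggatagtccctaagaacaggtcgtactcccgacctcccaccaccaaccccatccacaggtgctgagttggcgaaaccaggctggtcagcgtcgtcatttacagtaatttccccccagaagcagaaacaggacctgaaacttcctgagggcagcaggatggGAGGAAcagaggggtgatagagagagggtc
Trem2 promoter, chr17:48346151-48346400, plus strand: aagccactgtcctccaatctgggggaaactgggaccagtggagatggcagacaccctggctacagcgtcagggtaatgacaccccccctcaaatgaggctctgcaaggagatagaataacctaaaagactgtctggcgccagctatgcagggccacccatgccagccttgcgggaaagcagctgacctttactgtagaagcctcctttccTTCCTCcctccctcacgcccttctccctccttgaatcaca
Lyz2 promoter, chr10:117282273-117282522, minus strand: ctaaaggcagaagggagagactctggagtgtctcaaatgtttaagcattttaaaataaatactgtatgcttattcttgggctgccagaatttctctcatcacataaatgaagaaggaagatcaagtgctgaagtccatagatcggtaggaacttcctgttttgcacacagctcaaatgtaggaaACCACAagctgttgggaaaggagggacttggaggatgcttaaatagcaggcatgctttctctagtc

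In KO iPSC, a different group of blood cell genes was higher than in WT pluripotent cells, led by Nckap1l. It read 10.59 on both KO iPSC arrays, 7.53 and 7.21 in WT iPSC, 7.07 in WT ESC, 7.70 in WT MEF and 7.06 in KO MEF. Both KO iPSC arrays therefore lay far above the other 5. The limma fit of 2 KO iPSC against 3 WT pluripotent arrays gave a difference of 3.32 (SE 0.15, 10.02-fold, adjusted p = 0.00042). This difference was known when the list was drawn up, so it is no independent support for the list. In the 10 alternatives it stayed between 3.22 and 3.46 and past the threshold. The ubiquitous paralog Nckap1 read 11.27 and 11.30 in KO iPSC and 11.08 to 11.13 in the WT pluripotent arrays.

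Of the 36 genes, 5 were higher in KO iPSC than in WT pluripotent cells, compared with 6.89% of all genes, and 1 was lower, compared with 8.81%. The median difference was 0.05 over the 36 genes and 0.03 over all genes. At an unadjusted p under 0.05 stood 10 of the 36 (27.8%) and 31.5% of all genes. Over all genes 1529 were higher and 1954 lower, and centring each array on its median turned this to 1910 and 1620, with Csf1r as a sixth higher member. Besides Nckap1l, the genes that rose were Lcp1, Was, Laptm5 and Spi1, and Fcgr2b fell. These are actin regulators, an endosomal sorting protein, a transcription factor and an inhibitory receptor. C1q chains, Tyrobp, Fcer1g, Trem2, Cd14, Cd68 and Lyz2 did not pass.

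Lcp1, the leukocyte plastin that bundles actin filaments, read 8.26 and 8.07 in KO iPSC, 7.28 and 6.97 in WT iPSC, 6.89 in WT ESC, 8.60 in WT MEF and 8.11 in KO MEF. It rose by 1.12 (SE 0.14, 2.17-fold, adjusted p = 0.0067), to the range of the MEF arrays. Was, the protein missing in Wiskott-Aldrich syndrome, which activates actin branching beside the WAVE complex, read 7.95 and 7.90 in KO iPSC, 7.35 and 6.99 in WT iPSC, 6.71 in WT ESC, 6.47 in WT MEF and 6.39 in KO MEF. It rose by 0.91 (SE 0.19, adjusted p = 0.0284). Laptm5 rose by 0.89 (SE 0.20, adjusted p = 0.0355) and Spi1 by 0.59 (SE 0.12, adjusted p = 0.0293). For all 4, both KO iPSC arrays lay above all 3 WT pluripotent arrays. Fcgr2b fell by 1.0 (SE 0.18, 2.00-fold, adjusted p = 0.0178), with both KO iPSC arrays below all 3 WT arrays. These array orders come from the values tested and add no support to the calls. The share of all genes with such an order was not counted. The calls other than Nckap1l needed both KO iPSC arrays: without either one, Nckap1l was the only member called, while the share of all genes called higher fell to 0.708% and 0.780%. Without WT iPSC replicate 2 the higher genes were Nckap1l and Lcp1, and Adgre1, Fcgr2b and Lyz2 were lower, compared with 4.27% and 5.78% of all genes.

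**Figure D3:**
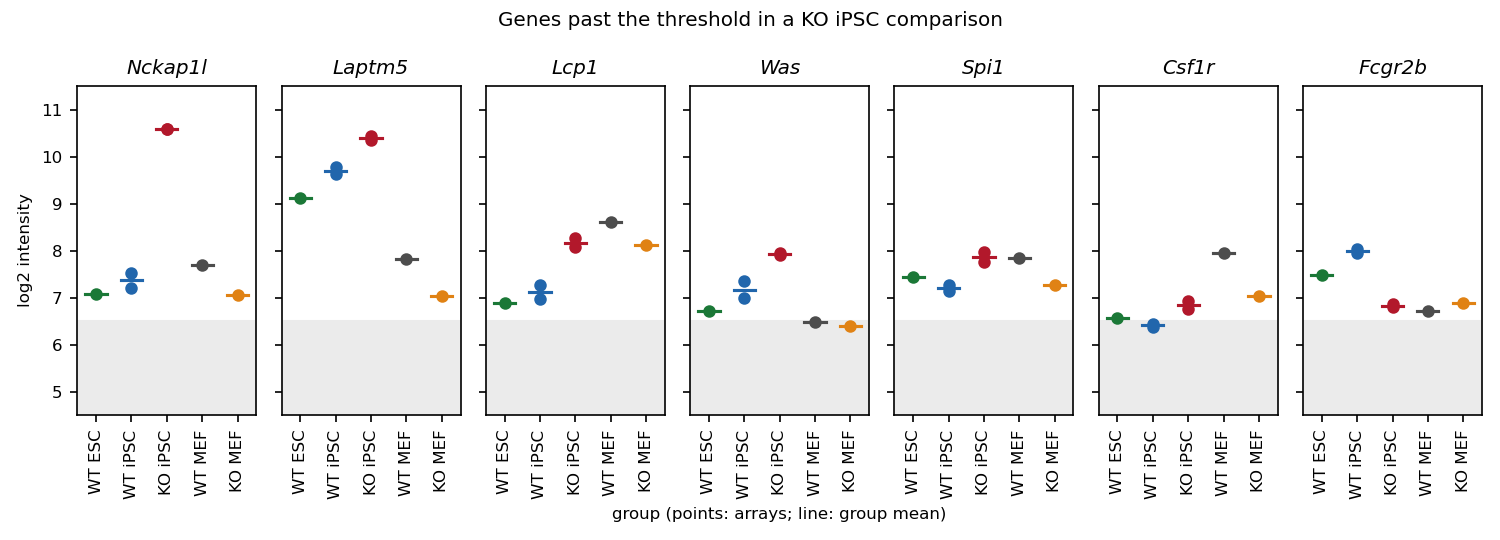
Log2 intensity of the 7 genes past the test in a KO iPSC comparison, by group. Points are arrays, short lines are group means and the grey band reaches the highest of the array yardsticks, 6.50. Nckap1l lies at 10.59 on both KO iPSC arrays and at 7.06 to 7.70 on the other 5.

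Set against WT iPSC alone, with a limma fit of 1 mean per group over all 7 arrays, 6 of the 36 genes were higher in KO iPSC (6.93% of all genes) and 1 lower (9.55%). The comparison shares its iPSC arrays with the one above. Csf1r joined the higher genes at 0.44 (SE 0.10, adjusted p = 0.0456). Nckap1l stood at 3.22, Lcp1 at 1.04, Was at 0.76, Laptm5 at 0.70 and Spi1 at 0.66, and Fcgr2b fell by 1.17. Without either KO iPSC array, Nckap1l and Fcgr2b alone were called. Without WT iPSC replicate 2, 7 were higher and 8 lower, compared with 11.1% and 14.2% of all genes.

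Of these 7 genes, Nckap1l, Spi1 and Csf1r have no entry in the promoter table. Neither letter string occurs in the promoters of Lcp1 and Fcgr2b. The match in Laptm5 is GAGGAA on the opposite strand, beginning 38 bases before the start site, and that in Was is TGTGGT on the same strand, beginning 37 bases before it.
Laptm5 promoter, chr4:130913066-130913315, plus strand: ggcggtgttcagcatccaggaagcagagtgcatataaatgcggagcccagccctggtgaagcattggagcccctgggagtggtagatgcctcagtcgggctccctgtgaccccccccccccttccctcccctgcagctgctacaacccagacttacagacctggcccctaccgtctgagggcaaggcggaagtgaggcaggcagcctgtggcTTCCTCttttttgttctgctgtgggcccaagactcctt
Was promoter, chrX:8090492-8090741, minus strand: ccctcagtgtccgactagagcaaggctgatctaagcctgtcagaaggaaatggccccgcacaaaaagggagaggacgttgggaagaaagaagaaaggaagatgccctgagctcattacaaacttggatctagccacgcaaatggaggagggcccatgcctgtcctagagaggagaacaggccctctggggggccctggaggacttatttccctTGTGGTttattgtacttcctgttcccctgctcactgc

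For none of the changed genes did all of the nearest measured genes pass the test. The 3 nearest measured genes on each side were taken from the RefSeq order. Over all genes, limma called 6.89% higher and 8.81% lower in KO iPSC against WT pluripotent cells. Beside Nckap1l on chromosome 15, Itga5 fell by 2.17 (adjusted p = 0.0013) and Ppp1r1a by 1.16 (adjusted p = 0.0104) in KO iPSC against WT pluripotent cells. The closest, Gtsf2 at 0.24 and Pde1b at -0.71, did not pass, nor did Gtsf1 and Glycam1. Beside Spi1 on chromosome 2, Madd rose by 0.78 and Rapsn by 0.45. The other neighbours of Spi1 did not pass: Slc39a13 at 0.32, Psmc3 at 0.30, Nr1h3 at 0.16 and Mybpc3 at 0.10. A shared change of the region was not tested. Beside Csf1r, Cdx1 rose by 0.66 and Slc6a7 by 0.55, and its direct neighbour Pdgfrb, at -1.21 (SE 0.54), did not pass. Beside Laptm5 only Snord85 rose, by 0.56, and none of the 6 neighbours of Lcp1, of Fcgr2b or of Was passed in this comparison. Against WT iPSC alone, Hdac6 fell by 0.89 (adjusted p = 0.0046) and Glod5 by 1.20 (adjusted p = 0.0061) beside Was. The lncRNA Gm15628, which overlaps Lcp1, stood at 0.14 (SE 0.11).

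Other genes of the same processes were taken from lists chosen, like the members, with earlier results known. Of all genes, limma called 6.89% higher and 8.81% lower in KO iPSC than in WT pluripotent cells. At an unadjusted p under 0.05 stood 31.5%. In iPSC against MEF, 16.0% of all genes were called higher and 14.7% lower. Of 14 measured WAVE complex and related actin genes, 1 was lower in KO iPSC than in WT pluripotent cells, Abi3 (-0.52), and none was higher, with 6 of the 14 at an unadjusted p under 0.05 in limma. A further 3 genes of that list were not measured. In iPSC against MEF 3 of the 14 rose, among them Cyfip2 (1.52) and Wasf3 (1.34), and 5 fell, among them Nckap1 (-0.37). Of 20 genes that signal from immune receptors, 2 rose in KO iPSC, Inpp5d (0.93) and Lat2 (0.51), and 2 fell, Ptpn6 (-0.66) and Prkcd (-0.48). Inpp5d, the lipid phosphatase SHIP, read 11.17 and 11.18 in KO iPSC, 10.14 and 10.43 in WT iPSC, 10.16 in WT ESC and 6.77 to 6.93 in MEF.

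Of 38 other macrophage genes, 10 were lower and none higher in iPSC than in MEF, compared with 14.7% and 16.0% of all genes. The 10 included Gpnmb (-2.28), Tmem119 (-1.75) and Cyba (-1.63). Between the MEF arrays, Gpnmb and Tmem119 were at least 2-fold higher in KO MEF (11.77 and 9.67) than in WT MEF (8.33 and 7.67). Ctss was at least 2.15-fold lower in KO MEF, and the median of the 38 was -0.11 (KO minus WT). In KO iPSC, Tlr2 (0.996), Gpnmb (0.78) and Csf2rb (0.46) rose and Csf2ra (-0.99) and Slc11a1 (-0.51) fell. Of the genes from these and the other lists called in this comparison, Csf2ra alone passed without KO iPSC replicate 2, and none did without replicate 1. Of 19 blood transcription factors, 7 were lower in iPSC than in MEF, compared with 14.7% of all genes. Among them were Runx1 at -3.41, Fli1 at -2.64 and Mecom, at least 6.44-fold lower. None of the 19 passed in limma between KO iPSC and WT pluripotent cells. There 5 had an unadjusted p under 0.05, compared with 31.5% of all genes. Against WT iPSC alone, Runx1 fell by 1.27 (adjusted p = 0.0026) and Gata2 by 0.85 (adjusted p = 0.0158) in KO iPSC, and Runx1 passed in all 10 alternatives run for it.

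Of 12 measured ligands by which stromal cells support macrophages, 7 were lower in iPSC than in MEF, compared with 14.7% of all genes. None was higher, compared with 16.0%, and the median was -2.68. Csf1 read 11.78 in WT MEF, 11.13 in KO MEF, 10.44 and 8.87 in WT iPSC, 8.89 in WT ESC, and 6.61 and 7.15 in KO iPSC. In KO iPSC it fell by 2.52 (SE 0.51, adjusted p = 0.0270) against WT pluripotent cells, while Il34, the other Csf1r ligand, rose by 0.82 (SE 0.20, adjusted p = 0.0482). Fibroblast markers fell in the same comparison for 2 of 14 genes, Bgn (-5.08) and Col1a1 (-2.44), with a list median of -1.06, and their part in the fall of Csf1 was not tested. Both Csf1r ligands thus changed in opposite directions, with WT iPSC replicate 1 the highest of the pluripotent arrays for Csf1. Il34 was not higher in fibroblasts. It read 7.13 in WT MEF, 7.29 in KO MEF, 7.74 and 7.28 in WT iPSC, 7.06 in WT ESC, and 8.12 and 8.25 in KO iPSC.

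Markers of other blood lineages gave few calls. In KO iPSC against WT pluripotent cells, limma called none of 6 erythroid, 7 megakaryocyte and 13 granulocyte or mast cell genes, of which 1, 2 and 0 had an unadjusted p under 0.05. Of 11 lymphoid markers, Ebf1, a B cell factor also made in stroma, rose by 2.73 (SE 0.45) and Cd79a was at least 1.48-fold lower. Of 10 endothelial markers Flt1 fell by 0.69. Over all genes, limma called 6.89% higher and 8.81% lower in this comparison. Granulocyte and mast cell markers were above background for 2 or 3 of 13 genes on every array. The summed intensity of the 36 members was 11942 in WT MEF, 8219 and 8296 in KO iPSC, 7489 and 5646 in WT iPSC, 6286 in WT ESC and 5570 in KO MEF. Ppbp, left out after its values were seen, made up much of the first value. Without it the sums were 8040 in WT MEF, 8139 and 8211 in KO iPSC, 6146 and 5553 in WT iPSC, 5967 in WT ESC and 5024 in KO MEF. The brightest members in KO iPSC were kept in: Cd68, Nckap1l and Laptm5, at 10.79, 10.59 and 10.36 on the log2 scale in replicate 1.

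**Figure D4:**
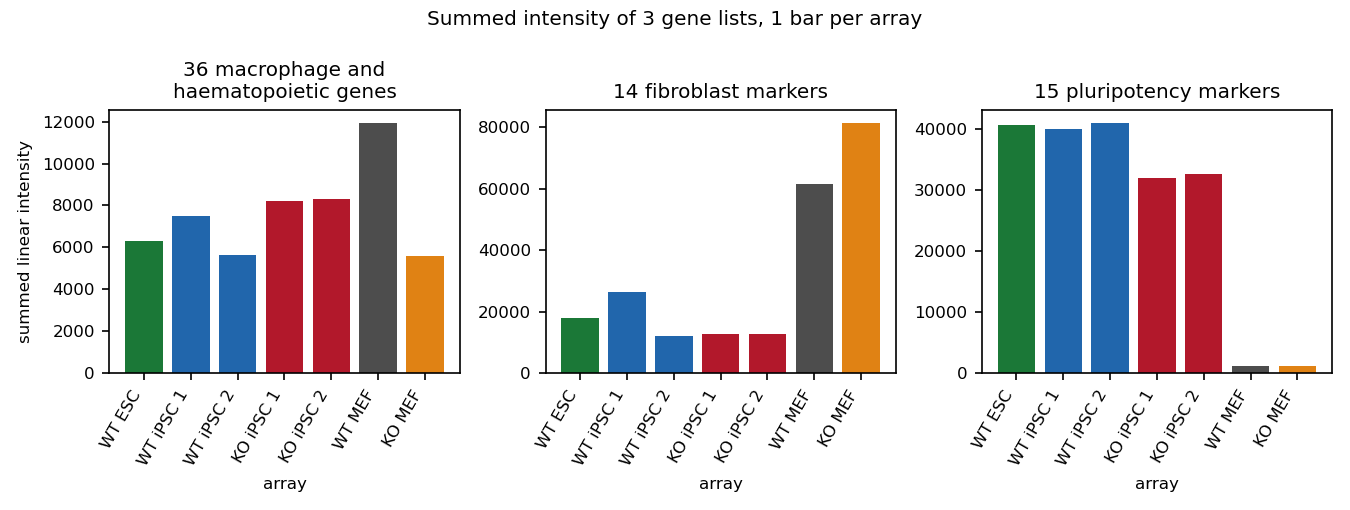
Summed linear intensity of the 36 genes, of the fibroblast markers and of the pluripotency markers on each of the 7 arrays. Bars start at 0. The 36 genes sum highest in WT MEF, while the fibroblast markers sum highest in KO MEF.

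WT ESC and WT iPSC did not differ in any of the 36 genes by the limma test: 0 were higher and 0 lower, compared with 0.0812% of all genes in each direction, and 4 (11.1%) had an unadjusted p under 0.05, compared with 12.2% of all genes. The median difference was -0.02 for the 36 and for all genes. The result depended on which WT iPSC array was kept. Without replicate 1, Ppbp (1.77), Lyz2 (1.14) and Fcer1g (0.95) were higher in ESC, as were 2.20% of all genes. Without replicate 2, Cd68 (0.57) was higher and Ppbp (-2.07), Cd53 (-1.14), Laptm5 (-0.65) and Was (-0.64) were lower, compared with 4.94% and 5.38% of all genes.

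The KO minus WT difference in iPSC was set against that in MEF with an interaction term, which rests on 1 array for each MEF genotype. For 7 of the 36 genes the difference was more positive in iPSC, compared with 3.07% of all genes, and for 1 more negative, compared with 5.48%. The median interaction was 0.54 over the 36 genes and 0.04 over all genes. Nckap1l led at 3.86, followed by Lcp1 at 1.53 and Laptm5 at 1.49, and Fcgr2b was the negative one at -1.34. Without either KO iPSC array Nckap1l alone passed, when the share of all genes in the positive direction was 0.0857% and 0.180%. Without WT iPSC replicate 1, 20 of the 36 and 9.40% of all genes passed in the positive direction.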

How the data were processed

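RNA of 7 mouse cell samples was measured on 1 single-colour Affymetrix array each. The authors deposited linear intensity values per probe set, from 9.67 to 13043, for which the submitters' processing notes name RMA and Affymetrix Expression Console, version 1.3.0.187; the design had assumed log2, so log2 was taken here with no further normalization. Of 33649 probe sets, 23521 had 1 gene symbol in the platform annotation, 1814 had several and 8314 were not listed; none with several symbols was used. The probe set with the highest mean stood for each of 22180 genes. All columns mapped to a sample (0 unmapped). Their number, 7, limits the precision.

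limma 3.58.1 in R 4.3.3 (lmFit, eBayes, two-sided, Benjamini-Hochberg over all 22180 genes, threshold 0.05) gave all tests, and the code was tested on simulated data. The comparisons share arrays. A fold whose dimmer group was below the background yardstick on every array is given against the yardstick, as "at least". Values of every array are given for members above background on at least 1 array. From other lists, up to 4 genes past the threshold with the largest differences were named. Members and lists were chosen with earlier results of these data known. The labels do not say that replicate numbers pair WT with KO iPSC arrays, and no pairing was taken. Alternatives were array centring, quantile normalization, keeping the 14787 genes of highest mean, a robust trended eBayes, probe set means, and leaving out arrays. Promoter letters came from the RefSeq table for GRCm38.p6.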

Additional observations from a re-analysis of the deposited data

Results flagged for a closer look

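For 8 of the 36 genes the KO minus WT difference was not the same in iPSC and MEF by limma's interaction term. That term has 1 array for each MEF genotype and takes its spread from the iPSC pairs. In MEF, a difference between genotypes and one between cultures therefore cannot be told apart. In each sentence the value is the KO minus WT difference in iPSC less that in MEF, on the log2 scale. Nckap1l gave 3.86 (SE 0.22, adjusted p = 0.0042), from 3.22 in iPSC and -0.64 in MEF. Lcp1 gave 1.53 (SE 0.24, adjusted p = 0.0278), from 1.04 and -0.49. Laptm5 gave 1.49 (SE 0.17, adjusted p = 0.0135), from 0.70 and -0.79. These genes were higher in KO iPSC and lower in KO MEF than in the matching WT cells. Csf1r gave 1.36 (SE 0.17, adjusted p = 0.0176), from 0.44 and -0.92. Spi1 gave 1.25 (SE 0.20, adjusted p = 0.0272), from 0.66 and -0.59. Fcgr3 gave 0.96 (SE 0.18, adjusted p = 0.0397), from 0.14 and -0.82. For Fcgr3, as for Csf1r and Laptm5 above and Cd84 below, the larger part of the value came from the MEF arrays. Cd84 gave 0.81 (SE 0.15, adjusted p = 0.0388), from 0.31 and -0.50, with every array below background. Fcgr2b gave -1.34 (SE 0.15, adjusted p = 0.0141), from -1.17 in iPSC and 0.17 in MEF. Without either KO iPSC array, Nckap1l alone passed.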

How the results depend on the processing

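Counts of members past the threshold moved most when 1 array was left out. With 1 array left in a group, that array is assumed to vary like the others. The number of all genes past the threshold also moved most then, so the ranges below are not particular to the members. The number of members higher ranged from 2 to 5 and lower from 1 to 22 for iPSC against MEF, higher from 1 to 6 and lower from 0 to 3 for KO iPSC against WT pluripotent cells, and higher from 1 to 8 and lower from 1 to 8 for KO iPSC against WT iPSC. For WT ESC against WT iPSC it ranged from 0 to 3 higher and 0 to 4 lower, and for the interaction from 1 to 20 higher and 0 to 4 lower. Among the 14787 genes of highest mean, 5 members were lower in iPSC than in MEF, since 24 were left to test. Members above background on at least 1 array numbered 29, 19 at the 99th percentile and 34 at the 90th. Leaving out 1 array turned 4 member values to the opposite sign with the test passed. Another 87 changed sign under an alternative with the test passed neither before nor after. Spi1 in iPSC against MEF was 0.60 without WT MEF and -0.65 without KO MEF. Fcer1g in KO against WT iPSC was -0.37 without WT iPSC replicate 2 and 0.56 without replicate 1. Ppbp was 1.77 and -2.07 in WT ESC against WT iPSC, and 2.65 and -1.19 in the interaction, without WT iPSC replicates 1 and 2. The cause was not tested.

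Replicate numbers are shared by WT and KO iPSC, but the labels do not say that they pair arrays, so no pairing was taken. The replicate 1 arrays' deviations from their group means correlated at r = 0.0166 across 22180 genes, which are not independent. Resting on so few arrays, this correlation cannot exclude a pairing. With the replicate number as a block, 5 members were higher and 1 lower in KO iPSC, Csf1r being lost, and over all genes 1331 were higher and 1948 lower against 1538 and 2118. Over all genes the KO iPSC against WT iPSC split became 1859 to 1795 with arrays centred on their medians and 1864 to 1854 with quantile-normalized arrays. Levels near background, single MEF arrays and unstated culture lines limit every comparison here.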
